A study of Mus musculus with 24 samples.

Results

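The 104 genes described here are the protein-coding neighbours of the Ago413 deletion on mouse chromosome 4. They were chosen by position and detection, apart from 9 genes left out by name. Each is a protein-coding gene of the GENCODE M21 annotation (build mm10) that starts within 5 Mb of Ago1 and reached 10 counts in 3 or more of the 24 libraries. Of 134 protein-coding genes that start in this window, 21 did not reach that count, and the 9 left out, which did reach it, were Ago1, Ago3, Ago4, Hdac1, Phc2, Tssk3, Tekt2, Psmb2 and Ndufs5. The members thus make up 104 of 20542 genes with such counts in the whole series. Of these, 49 lie on the centromeric side of the span from Ago3 to Ago4 (chromosome 4, 126331704 to 126533472), 55 lie on the telomeric side and 0 lie within it. Distances below are measured from the nearer end of that span to the nearer end of the gene.

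PolyA+ RNA was measured by directional RNA sequencing in testicular germ cells of C57BL/6J males of 10 to 15 weeks of 3 genotypes (Ago413+/+, wild-type; Ago413+/-, heterozygous; Ago413-/-, null) at a constitutive deletion reaching from Ago3 into Ago4, which removes all of Ago1 and parts of Ago3 and Ago4. Pachytene/diplotene spermatocytes and round spermatids were enriched from pools of 2 to 5 mice of 1 genotype on a bovine serum albumin gradient, to a purity above 70%, so each library is a pool of animals and holds some other testis cells. The 21 libraries kept were 4 wild-type, 3 heterozygous and 3 null for spermatocytes and 3 wild-type, 4 heterozygous and 4 null for round spermatids. A further 3 libraries that the labels call outliers entered only where stated. The line was targeted in embryonic stem cells of another inbred strain with selection cassettes, crossed to a Sox2-cre deleter of mixed background and then backcrossed. In these animals the deletion and any donor-strain sequence next to it travel together, so their effects cannot be told apart. In whole fractions fewer cells of a type and less RNA per cell cannot be told apart either.

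A gene targeted in stem cells of one strain and crossed into another carries a stretch of donor chromosome on both sides of the engineered site, and each backcross shortens that stretch by recombination. Neighbouring genes can also be touched by a deletion when enhancers, insulators or a transcript's end are removed. Argonaute proteins bind small RNAs and repress matching transcripts, and in meiosis they have also been placed in the nucleus. The neighbours themselves serve unrelated functions. Among them are RNA processing factors (Sfpq, Khdrbs1, Snrnp40), translation and ribosome assembly factors (Eif3i, Yars, Gnl2), chromatin proteins (Rbbp4, Meaf6), ubiquitin ligases (Trim62, Rnf19b) and genes used mainly in male germ cells (Hmgb4, Oxct2a, Oxct2b).

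The promoters of the 4 members that passed a test below (Tmem35b, Trim62, Tmem39b and Zbtb8os) and of Rbbp4, the divergent neighbour of Zbtb8os, are shown because the comparison of genotypes turns on these genes. They are RefSeq sequences of build GRCm38.p6 from 250 bases before to 50 bases after the RefSeq start site, written 5′ to 3′ along the gene. Capitals mark matches on either strand to a GC box (GGGCGG), the CCAAT motif, a CRE half-site (TGACGT), the TATA motif TATAAA or a MYB core spelled TAACNG.
Tmem35b, chr4:127125793-127126092, plus strand: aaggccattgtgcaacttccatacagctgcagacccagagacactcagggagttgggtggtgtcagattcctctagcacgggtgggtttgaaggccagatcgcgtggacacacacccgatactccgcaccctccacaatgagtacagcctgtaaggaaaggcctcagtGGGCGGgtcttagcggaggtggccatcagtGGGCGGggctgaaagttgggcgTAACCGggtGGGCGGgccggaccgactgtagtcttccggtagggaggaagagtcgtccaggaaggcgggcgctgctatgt
Trim62, chr4:128883794-128884093, plus strand: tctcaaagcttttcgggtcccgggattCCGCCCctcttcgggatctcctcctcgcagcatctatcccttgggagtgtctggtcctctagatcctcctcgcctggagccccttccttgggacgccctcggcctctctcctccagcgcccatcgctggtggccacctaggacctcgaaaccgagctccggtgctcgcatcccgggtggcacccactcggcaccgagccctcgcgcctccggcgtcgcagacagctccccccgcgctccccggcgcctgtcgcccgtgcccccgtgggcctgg
Tmem39b, chr4:129696796-129697095, minus strand: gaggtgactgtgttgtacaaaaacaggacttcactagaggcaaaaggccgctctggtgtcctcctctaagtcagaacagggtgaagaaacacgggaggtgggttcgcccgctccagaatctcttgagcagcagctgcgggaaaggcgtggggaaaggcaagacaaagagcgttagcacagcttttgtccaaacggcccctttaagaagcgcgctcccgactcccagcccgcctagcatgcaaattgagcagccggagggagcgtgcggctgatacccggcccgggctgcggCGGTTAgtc
Rbbp4, chr4:129335321-129335620, minus strand: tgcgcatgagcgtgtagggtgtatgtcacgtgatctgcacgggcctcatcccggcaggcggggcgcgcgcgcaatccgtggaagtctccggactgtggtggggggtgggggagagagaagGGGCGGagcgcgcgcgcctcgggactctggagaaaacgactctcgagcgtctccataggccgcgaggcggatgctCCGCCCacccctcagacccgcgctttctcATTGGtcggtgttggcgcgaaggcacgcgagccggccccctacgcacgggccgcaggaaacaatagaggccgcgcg
Zbtb8os, chr4:129335718-129336017, plus strand: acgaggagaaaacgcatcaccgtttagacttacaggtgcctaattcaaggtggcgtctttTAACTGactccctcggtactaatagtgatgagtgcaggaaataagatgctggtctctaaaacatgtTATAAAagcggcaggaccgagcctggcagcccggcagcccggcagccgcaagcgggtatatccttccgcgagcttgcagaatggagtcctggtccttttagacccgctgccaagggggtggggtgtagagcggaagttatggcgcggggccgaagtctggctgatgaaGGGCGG
The sequence is that of the reference strain, not of the targeted chromosome. A GC box lay in 35.7% of all 32851 promoters of the table and in 59.5% of the 84 members with a promoter there. The shares of all promoters were 37.4% for CCAAT, 7.51% for TGACGT, 13.6% for TATAAA and 23.3% for TAACNG, against 45.2%, 8.33%, 7.14% and 19.0% of the members. The Tmem35b promoter held 3 GC boxes and the Tmem39b promoter held none of them, with 1 MYB core as its sole match. Zbtb8os was the only one of these 5 with a TATA box. The Rbbp4 window held 39 CpG dinucleotides against 19 in that of Zbtb8os, with a median of 21 for members and 7 for all promoters. A match is a string of letters and no sign of binding. The RefSeq start of Tmem35b lies 2352 bases, that of Trim62 464 bases and that of Zbtb8os 273 bases from the GENCODE start of the gene.

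Totals of the kept libraries ran from 12825105 to 29749058 counts. Markers of spermatocytes summed to 1141 CPM (counts scaled to library size, corrected by the trimmed mean of M-values) in wild-type spermatocytes, range 781.7 to 1504, and to 628 CPM in null ones, range 462 to 752. These ranges do not overlap, and the median log2 fold change was -1.04 with 0 of 6 above 0. Heterozygous spermatocyte libraries summed to 680 CPM, range 607 to 804. Round spermatid markers in the spermatocyte fraction summed to 5691 CPM in wild-type, 6632 CPM in heterozygous and 6256 CPM in null libraries. Markers of round spermatids summed to 18530 CPM in wild-type and 21700 CPM in null round spermatids, and all 6 were detected. Spermatocyte markers in that fraction summed to 495.7 CPM (439.6 to 562) in wild-type and 344 CPM (275 to 403) in null libraries, which do not overlap, with a median log2 fold change of -0.52 and 1 of 6 above 0. Macrophage markers stood at 14.9 CPM (11.3 to 18.4) in the wild-type round spermatid libraries and 30.2 CPM (28.9 to 33.3) in the null ones, with a median log2 fold change of 1.44 and 8 of 9 above 0, and at 5.12 and 9.29 CPM in spermatocytes. Other sums in null against wild-type libraries were 53.4 against 42.2 CPM for spermatogonia, 20.5 against 36 CPM for Sertoli cells and 6.26 against 6.99 CPM for Leydig cells in spermatocytes, and 64.6 against 54.5 CPM, 41.97 against 35.7 CPM and 6.15 against 5.91 CPM in round spermatids. Peritubular myoid, erythrocyte and endothelial markers summed to at most 7.45, 1.61 and 4.32 CPM in any group mean. The part of these differences in the results below was not tested. Leaving out wild-type replicate 5 or heterozygous replicate 3 of the spermatocytes raised some counts of calls, and these values are given beside the counts.

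The first question was whether genes near the deletion changed more than genes farther away. In spermatocytes 31 of 103 members tested had null libraries that did not overlap with the wild-type libraries, which is 30.1% of the members against 27.8% of all 19450 genes tested. Of these members 12 were higher and 19 lower (11.7% and 18.4%), against 13% and 14.8% of all genes. In round spermatids 30 of 103 did not overlap (29.1%), against 20.8% of all 19310 genes, with 9 higher and 21 lower (8.74% and 20.4%) against 8.43% and 12.3%. The sum of spermatocyte markers was lower in the same null libraries, as given above, and its part in these counts was not tested. The median size of the log2 fold change of the members was 0.36 in spermatocytes and 0.29 in round spermatids, against 0.45 and 0.26 over all genes, and the median with its sign was -0.08 and -0.03 against -0.03 and 0.03. The members as a list therefore sat near the level of all genes in spermatocytes and above it in round spermatids by the count without overlap. Without wild-type replicate 5 the spermatocyte count was 48 of 103 (46.6%), but the share of all genes was then 52.3%.

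The shares without overlap are given here by side and distance as counts, with no test of the difference between bins. Over all genes these shares were 27.8% in spermatocytes and 20.8% in round spermatids. The 95% Wilson intervals, which cover counting error only, overlapped between the members within 2 Mb and those beyond on each side and in each fraction. On the centromeric side 12 of 29 members within 2 Mb of the span (41.4%, interval 25.5% to 59.3%) did not overlap in spermatocytes, and 3 of 20 (15.0%, 5.24% to 36%) from 2 Mb on. In round spermatids these shares were 7 of 28 (25.0%, 12.7% to 43.4%) and 2 of 20 (10.0%, 2.79% to 30.1%). On the telomeric side 2 of 15 members within 2 Mb (13.3%, 3.74% to 37.9%) and 14 of 39 farther out (35.9%, 22.7% to 51.6%) did not overlap in spermatocytes, and 3 of 15 (20%, 7.05% to 45.2%) and 18 of 40 (45.0%, 30.7% to 60.2%) in round spermatids. Both sides together gave 14 of 44 (31.8%) within 2 Mb and 17 of 59 (28.8%) beyond in spermatocytes, and 10 of 43 (23.3%) and 20 of 60 (33.3%) in round spermatids. DESeq2, the other tool run, called 10 of 44 members within 2 Mb (22.7%) and 8 of 59 beyond (13.6%) in null spermatocytes, against 15.6% of all genes. In null round spermatids it called 2 of 43 (4.65%) and 8 of 60 (13.3%), against 3.64% of all genes.

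In steps of 1 Mb the centromeric side had 3 of 12 members without overlap in the first megabase (25.0%), 9 of 17 in the second (52.9%, 7 of them lower), 1 of 8 in the third (12.5%) and 2 of 12 in the fourth (16.7%) in spermatocytes. In round spermatids these shares were 18.2%, 29.4% (5 of 17, all lower), 12.5% and 8.33%. Over all genes 27.8% did not overlap in spermatocytes (13% higher, 14.8% lower) and 20.8% in round spermatids (8.43% higher, 12.3% lower). The telomeric side had 2 of 12 (16.7%), 0 of 3, 8 of 17 (47.1%) and 6 of 20 (30.0%) in spermatocytes, and 3 of 12 (25.0%), 0 of 3, 8 of 17 (47.1%) and 9 of 20 (45.0%) in round spermatids. The last telomeric bin, from 4 to 5 Mb, had 0 of 2 in spermatocytes and 1 of 3 in round spermatids. The 8 telomeric members from 2 to 3 Mb were 4 higher and 4 lower both times, and the 9 from 3 to 4 Mb in round spermatids were 2 higher and 7 lower. The highest shares thus lay in the second centromeric megabase in spermatocytes and in the third telomeric one in round spermatids, not next to the span. These bins hold 20 members or fewer and their limits were set by hand, so they are descriptions. Whether the groups overlap depends on how many libraries are compared. With the 3 outlier libraries added back, the shares of both sides together fell to 9.09% within 2 Mb and 16.9% beyond in spermatocytes, where 11.5% of all genes did not overlap, and were 20.5% and 25.0% in round spermatids, where 13.9% of all genes did not.

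**Figure D1:**
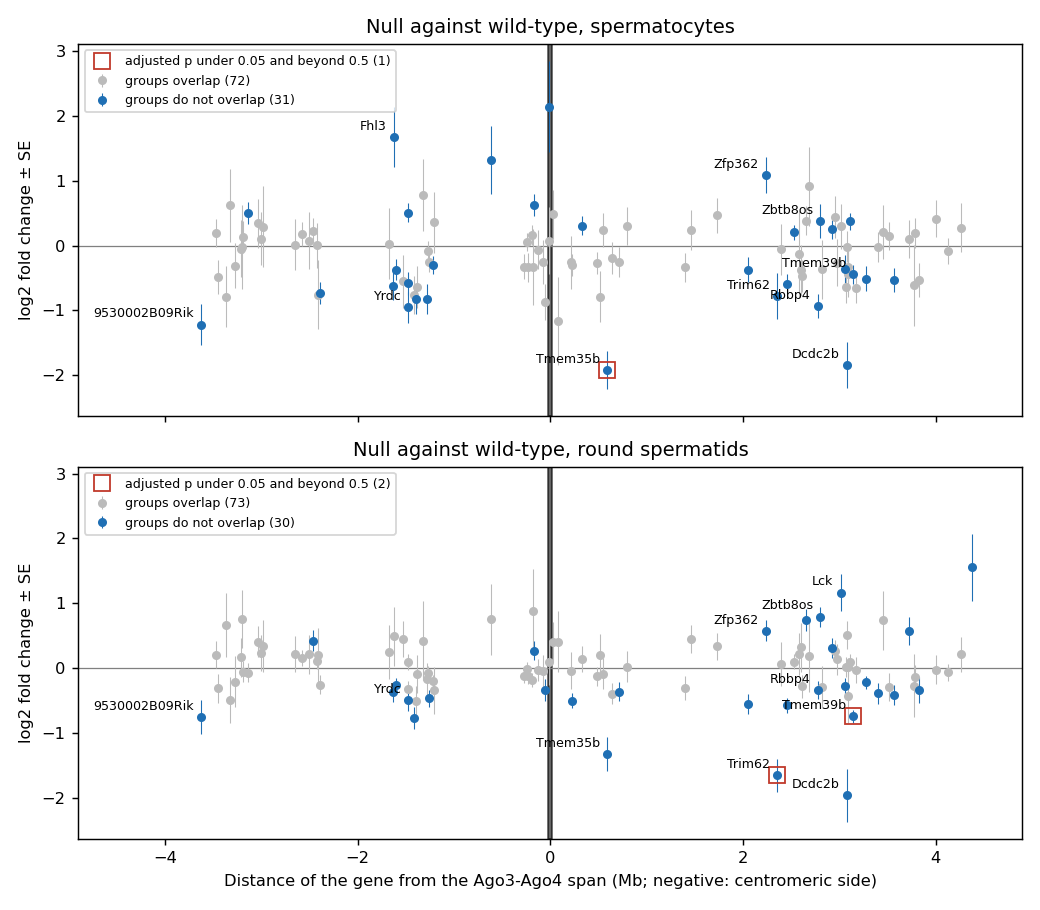
The log2 fold change of each member with its SE (null against wild-type libraries) is plotted against its distance from the Ago3-Ago4 span in Mb, centromeric side negative, for spermatocytes (top) and round spermatids (bottom). Blue points are members whose null and wild-type libraries do not overlap (31 and 30), red squares mark the 1 and 2 members that passed the test. Members without overlap lie within 2 Mb and beyond on both sides (12 and 3 centromeric and 2 and 14 telomeric members in spermatocytes, 7 and 2 and 3 and 18 in round spermatids). Over all genes 27.8% did not overlap in spermatocytes and 20.8% in round spermatids.

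The 3 nearest members on each side did not pass the edgeR test in either fraction, and DESeq2 called Trappc3 among them in null spermatocytes. On the centromeric side these are Adprhl2 (an ADP-ribosylhydrolase, 0.01 Mb away), Col8a2 (a collagen chain, 0.02 Mb away) and Trappc3 (a subunit of the TRAPP vesicle tethering complex, 0.06 Mb away). Adprhl2 measured 1.40, 2.00, 2.32 and 0.95 CPM in the wild-type spermatocyte libraries and 3.23, 1.06 and 0.94 CPM in the null ones, which overlap widely, with a log2 fold change of 0.08 (SE 0.51, adjusted p = 0.928 by edgeR). Its round spermatid value was 0.09 (SE 0.35, adjusted p = 0.913 by edgeR). Col8a2 was at no more than 3 counts in each wild-type spermatocyte library (0 to 0.16 CPM) and at 0.46, 0.56 and 0.22 CPM in the null ones, so its separation rests on a few reads. DESeq2 gave it no adjusted p there, and it was not tested in round spermatids for lack of counts. Trappc3 measured 16.9, 11.5, 16.3 and 8.68 CPM in wild-type spermatocytes, 10.4, 10.8 and 8.27 CPM in heterozygous and 7.38, 8.71 and 5.77 CPM in null libraries. The lowest wild-type library and the highest null library just overlapped, and the log2 fold change of -0.87 (SE 0.27) had an adjusted p of 0.0734 by edgeR. DESeq2 gave Trappc3 a log2 fold change of -0.85 there and an adjusted p of 0.0231, a call. In round spermatids its null libraries (6.16 to 6.84 CPM) lay below the wild-type ones (7.86 to 8.85 CPM), with a log2 fold change of -0.33 (SE 0.17, adjusted p = 0.291 by edgeR).

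On the telomeric side the nearest members are Clspn (claspin, a mediator of the replication checkpoint, 0.02 Mb away), 5730409E04Rik (0.08 Mb) and Ncdn (neurochondrin, known from neurons, 0.21 Mb). All 3 had groups that overlap in both fractions. Clspn had a log2 fold change of 0.48 (SE 0.38) in spermatocytes and 0.41 (SE 0.31) in round spermatids, with edgeR adjusted p of 0.397 and 0.488. The values were -1.16 (SE 0.68) and 0.41 (SE 0.47) for 5730409E04Rik, at levels of 0.18 to 1.84 CPM, and -0.26 (SE 0.40) and -0.04 (SE 0.28) for Ncdn, all with edgeR adjusted p of at least 0.255. Leaving out 1 library moved the spermatocyte values over 0.07 to 0.78 for Clspn, -2.22 to -0.65 for 5730409E04Rik and -0.47 to -0.01 for Ncdn.

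Tmem35b (ENSMUSG00000070737, chromosome 4, 127123691 to 127129644, plus strand, 0.59 Mb telomeric), which encodes a small membrane protein, was the single member of 103 that passed the test in null spermatocytes (edgeR adjusted p under 0.05 and log2 fold change beyond 0.5), where 0.0411% of all genes did. Its level was 10.3, 7.83, 11.03 and 7.15 CPM in wild-type replicates 1, 2, 4 and 5, then 5.15, 3.54 and 2.87 CPM in the heterozygous and 2.62, 2.43 and 2.15 CPM in the null libraries. The 3 genotypes did not overlap and fell in the order of deleted copies. The log2 fold change was -1.92 (SE 0.29, adjusted p = 0.0403 by edgeR). It passed in 1 of 7 fits that left out 1 library, the one without wild-type replicate 5 (adjusted p = 0.00247), and not in the others (0.0662 to 0.225). The call was also lost with the outlier libraries added back (adjusted p = 0.139), with a term for library numbers above 60 (0.164) and with library totals (0.0578), all by edgeR. Without that library 20 members passed, with 23.6% of all genes. In round spermatids wild-type libraries stood at 3.41, 4.07 and 5.50 CPM, heterozygous at 3.06, 3.72, 3.11 and 2.66 CPM and null at 1.21, 1.37, 2.315 and 1.95 CPM. Null and wild-type libraries again did not overlap, with a log2 fold change of -1.32 (SE 0.26, adjusted p = 0.0667 by edgeR). The first bases of Tmem35b in the annotation overlap the end of Zmym6 on the same strand, so reads there belong to neither gene alone. Zmym6, a zinc finger gene, had log2 fold changes of 0.23 (SE 0.26) and -0.09 (SE 0.24) in the 2 fractions. Among libraries numbered up to 60 in the labels and among those above 60, the log2 ratio of the null to the wild-type mean of Tmem35b was -1.89 and -1.64 in spermatocytes and -1.54 and -1.37 in round spermatids. Each of these spermatocyte ratios, and the round spermatid ratio above 60, has 1 library on 1 side.

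Trim62 (ENSMUSG00000041000, chromosome 4, 128883580 to 128911328, plus strand, 2.35 Mb telomeric), a RING-type ubiquitin ligase, and Tmem39b (ENSMUSG00000053730, chromosome 4, 129676355 to 129696838, minus strand, 3.14 Mb telomeric), a multi-pass membrane protein, were the 2 members of 103 that passed in null round spermatids, where 0.0518% of all genes did. Trim62 measured 4.02, 4.91 and 4.29 CPM in the wild-type round spermatid libraries, 2.84, 3.16, 3.68 and 4.27 CPM in heterozygous and 1.70, 0.80, 1.53 and 1.58 CPM in null ones. All null libraries lay below all others, while heterozygous and wild-type libraries overlapped. Its log2 fold change was -1.65 (SE 0.25, adjusted p = 0.0218 by edgeR), and it passed in 1 of 7 fits that left out a library (without null replicate 1), with adjusted p from 0.0400 to 0.111. The call was also lost with the replicate block (0.0883) and with only the compared groups (0.0585). Its log2 ratio of means was -1.84 among libraries numbered up to 60 and -1.46 among those above, the latter with 1 wild-type library. In spermatocytes Trim62 had 2.60, 3.04, 3.02 and 4.53 CPM in wild-type, 3.79, 4.80 and 1.82 CPM in heterozygous and 2.15, 1.57 and 2.06 CPM in null libraries. Null and wild-type did not overlap there either, but the log2 fold change of -0.78 (SE 0.36) had an adjusted p of 0.161 by edgeR.

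Tmem39b was far more abundant. It stood at 104, 105 and 95.6 CPM in the wild-type round spermatid libraries, at 83.2, 93.0, 101 and 83.04 CPM in heterozygous and at 60.2, 62.65, 57.4 and 62.1 CPM in null ones. The null libraries formed a tight group below the rest, and the fall was 0.75 on the log2 scale (fold change -0.75, SE 0.11, adjusted p = 0.0117 by edgeR). It passed in 2 of 7 fits without 1 library (without null replicate 1 or 4), with adjusted p up to 0.0803, and the call was also lost with the replicate block (0.0645) and with library totals (0.0598). Spermatocytes gave 112, 105, 103 and 134 CPM in wild-type, 96.7, 95.2 and 103 CPM in heterozygous and 77.03, 87.2 and 86.5 CPM in null libraries, a log2 fold change of -0.44 (SE 0.15, adjusted p = 0.0831 by edgeR). Null libraries lay below both other genotypes in that fraction too.

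**Figure D2:**
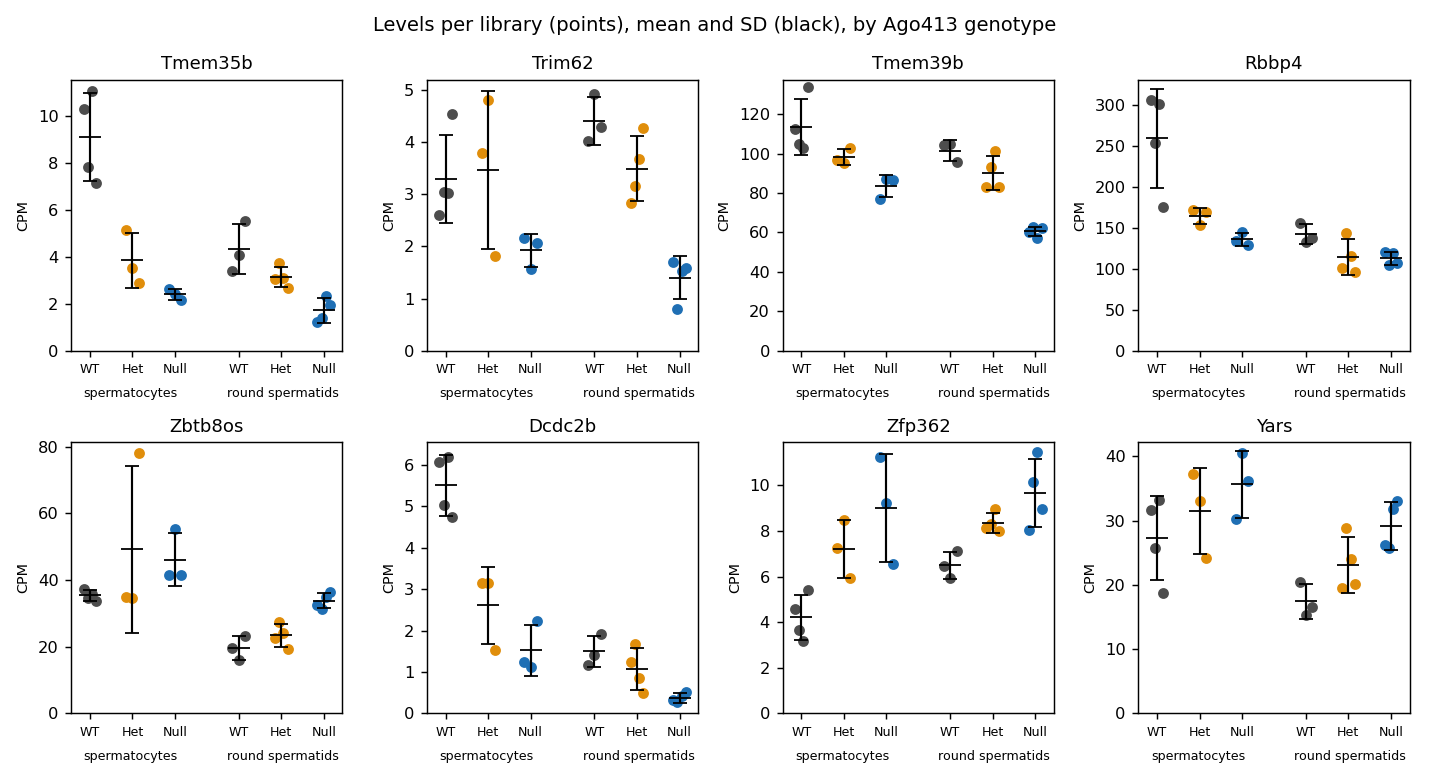
CPM in every kept library (points) with the group mean and SD (black) for 8 members, spermatocytes on the left of each panel and round spermatids on the right, in wild-type, heterozygous and null libraries. Tmem35b, Trim62, Tmem39b, Dcdc2b and Rbbp4 had null libraries below the wild-type ones in both fractions, Zbtb8os and Zfp362 had them above, and Yars had them above in round spermatids, from 15.3 to 20.5 CPM in wild-type to 25.8 to 33.0 CPM in null libraries.

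Zbtb8os (ENSMUSG00000057572, chromosome 4, 129335695 to 129354547, plus strand, 2.80 Mb telomeric), the archease cofactor of the tRNA ligase, and Rbbp4 (ENSMUSG00000057236, chromosome 4, 129307100 to 129335370, minus strand), a histone-binding subunit of several chromatin complexes, start 325 bases apart and are transcribed away from each other. Their log2 fold changes of null against wild-type libraries had opposite signs in both fractions, but neither gene passed that edgeR test in either. DESeq2 called Rbbp4 in null spermatocytes (adjusted p = 0.00196 by DESeq2) and Zbtb8os in null round spermatids (0.00025), and neither in the other fraction. Zbtb8os measured 19.5, 16.0 and 23.1 CPM in the wild-type round spermatid libraries, 22.6, 27.5, 24.2 and 19.3 CPM in heterozygous and 32.4, 31.3, 35.0 and 36.3 CPM in null ones. All null libraries lay above all others, with a log2 fold change of 0.79 (SE 0.15, adjusted p = 0.0667 by edgeR). Its slope per deleted copy, 0.40 (SE 0.07), passed with an adjusted p of 0.0469 by edgeR. Rbbp4 in the same cells stood at 156, 133 and 138 CPM in wild-type and at 120, 105, 119 and 107 CPM in null libraries, a log2 fold change of -0.34 (SE 0.14, adjusted p = 0.205 by edgeR). In spermatocytes Rbbp4 measured 306, 254, 302 and 176 CPM in wild-type, 172, 154 and 169 CPM in heterozygous and 134, 145 and 129 CPM in null libraries. These 3 genotypes did not overlap, and the log2 fold change was -0.93 (SE 0.19, adjusted p = 0.0599 by edgeR). Zbtb8os in spermatocytes stood at 37.4, 34.5, 35.9 and 33.8 CPM in wild-type, 34.8, 34.6 and 78.1 CPM in heterozygous and 41.5, 55.2 and 41.5 CPM in null libraries, with a log2 fold change of 0.38 (SE 0.26, adjusted p = 0.329 by edgeR), and heterozygous replicate 3 stood far above the other 2 libraries of its group.

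Among members, 8 such head-to-head pairs had start sites within 1 kb of each other. S100pbp and Yars (tyrosyl-tRNA synthetase), 33 bases apart, also had opposite signs: round spermatids gave log2 fold changes of 0.74 (SE 0.17, adjusted p = 0.0774 by edgeR) for Yars and -0.28 (SE 0.18, adjusted p = 0.409 by edgeR) for S100pbp, and in spermatocytes 0.38 (SE 0.23) and -0.47 (SE 0.25). Yrdc, an enzyme of tRNA threonylcarbamoylation, and its partner 1110065P20Rik overlap by 517 bases and both lay lower, by -0.95 and -0.59 in spermatocytes and -0.50 and -0.33 in round spermatids. Where 2 genes overlap on opposite strands, as these do, their reads can be told apart only if counting used the strand, which is not given in the sources used here for this step. This touches 44 members that overlap a gene on the other strand. Rbbp4 and Zbtb8os do not overlap each other in the annotation, but Rbbp4 overlaps Sync and Gm26722, and Zbtb8os overlaps Zbtb8a, on the other strand.

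Further members did not pass the edgeR test of null against wild-type libraries but had no overlap and the smallest p among such members. DESeq2 called Dcdc2b (adjusted p = 0.000245 by DESeq2) and Zfp362 (0.00349) in null spermatocytes, and Zfp362 (0.0130) in null round spermatids. Dcdc2b, which encodes a doublecortin domain protein (3.07 Mb telomeric), measured 6.08, 5.03, 6.19 and 4.73 CPM in wild-type, 3.15, 3.15 and 1.525 CPM in heterozygous and 1.23, 1.11 and 2.24 CPM in null spermatocytes, a log2 fold change of -1.84 (SE 0.35, adjusted p = 0.0599 by edgeR). In round spermatids it was low, at 1.18, 1.40 and 1.92 CPM in wild-type and 0.31, 0.27, 0.41 and 0.53 CPM in null libraries, and the log2 fold change was -1.96 (SE 0.41, adjusted p = 0.0707 by edgeR). The 2 log2 fold changes of Dcdc2b lay within 1 SE of each other, at levels that differed several times over. Dcdc2b lies wholly within Tmem234 on the other strand, so the limit on strand given above applies to its reads. Tmem234 had log2 fold changes of -0.64 (SE 0.24) in spermatocytes and 0.02 (SE 0.15) in round spermatids. Zfp362, a zinc finger gene, lay higher, at 4.57, 3.67, 3.17 and 5.41 CPM in wild-type against 11.2, 9.21 and 6.53 CPM in null spermatocytes, with log2 fold changes of 1.09 (SE 0.27, adjusted p = 0.0599 by edgeR) and, in round spermatids, 0.58 (SE 0.16, adjusted p = 0.0992 by edgeR).

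The 4 centromeric members among those with the smallest p all lay lower in the null. By DESeq2, Rragc (adjusted p = 0.00267), 9530002B09Rik (0.00578) and Yrdc (0.00946) were called in null spermatocytes, and Epha10 (0.0023) in null round spermatids. Rragc, a Rag GTPase that relays amino acid supply to mTORC1, measured 51.4, 52.3, 47.7 and 41.7 CPM in wild-type, 29.2, 34.4 and 26.5 CPM in heterozygous and 27.4, 32.1 and 27.5 CPM in null spermatocytes. Heterozygous and null Rragc libraries shared 1 range below the wild-type one, and the log2 fold change was -0.73 (SE 0.17, adjusted p = 0.0599 by edgeR), while in round spermatids it was -0.26 (SE 0.14, adjusted p = 0.340 by edgeR) with overlap. 9530002B09Rik, the member farthest from the span on that side, stood at 10.2, 10.7, 7.50 and 7.93 CPM in wild-type and 4.05, 5.06 and 2.59 CPM in null spermatocytes, a log2 fold change of -1.22 (SE 0.32), and Yrdc at 40.8, 31.1, 41.5 and 23.99 against 13.1, 22.8 and 17.2 CPM, a log2 fold change of -0.95 (SE 0.24), both with an adjusted p of 0.0599 by edgeR. Epha10, a kinase-dead Eph receptor, measured 28.7, 19.9 and 20.3 CPM in wild-type and 11.5, 12.4, 15.1 and 15.0 CPM in null round spermatids, a log2 fold change of -0.77 (SE 0.17, adjusted p = 0.0744 by edgeR). Its spermatocyte value was also -0.77 (SE 0.29, adjusted p = 0.105 by edgeR), but the groups overlapped.

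The size of several of these differences depended on the libraries. In spermatocytes the libraries numbered up to 60 in the labels include 1 null library and those above 60 include 1 wild-type library, so each ratio of means within a part rests on a single library on 1 side. In round spermatids the part above 60 likewise has 1 wild-type library. The log2 ratio of the null to the wild-type mean was looked at for 13 named members, most of which were named because their groups did not overlap, which fixes its sign in each part. Its size differed by over 1.5 times between the parts for 9 of the 13 in spermatocytes and 4 in round spermatids. In spermatocytes it was -1.48 up to 60 and -0.08 above for Epha10, -1.525 and -0.26 for Yrdc, -1.10 and -0.36 for Rbbp4, 1.56 and 0.54 for Zfp362, and -0.42 and -1.32 for Trim62. The part of the library number in these differences was not tested beyond the fit with it as a term.

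By CPM, not corrected for length, the 3 most abundant members were Rnf19b (an RBR ubiquitin ligase), Sh3d21 (an SH3 domain gene) and Oscp1. Rnf19b averaged 642 ± 37.0 CPM (SD, n = 4) in wild-type and 739 ± 51.9 CPM (SD, n = 3) in null spermatocytes, and 739 ± 41.3 CPM (SD, n = 3) and 791 ± 47.2 CPM (SD, n = 4) in round spermatids, with log2 fold changes of 0.20 (SE 0.12) and 0.10 (SE 0.11). Its groups did not overlap in spermatocytes and overlapped in round spermatids. Sh3d21 measured 394, 395, 306 and 533.5 CPM in wild-type, 567, 573 and 616 CPM in heterozygous and 697, 599.6 and 584 CPM in null spermatocytes, a log2 fold change of 0.62 (SE 0.17, adjusted p = 0.0617 by edgeR), and 0.27 (SE 0.14, adjusted p = 0.314 by edgeR) in round spermatids. Oscp1, 0.24 Mb from the span, stayed within the spread of its libraries, with log2 fold changes of 0.05 (SE 0.14) and -0.01 (SE 0.11). Per kb of exon Rnf19b stood at 223 CPM, Sh3d21 at 149.8 CPM and Oscp1 at 98.9 CPM in wild-type spermatocytes, above Tmem39b at 49.6, Tmem35b at 4.75 and Trim62 at 0.66 CPM per kb.

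Heterozygous animals carry 1 deleted copy, so the second question was whether the members changed in steps. None of 103 members passed in heterozygous against wild-type libraries in either fraction (0.0257% of all genes in spermatocytes and 0.0207% in round spermatids by edgeR). At an unadjusted p under 0.05 edgeR gave 25 members in spermatocytes (24.3%, all genes 24.6%) and 10 in round spermatids (9.71%, all genes 8.88%). DESeq2 called 7 members in heterozygous spermatocytes, all lower (6.80%, against 6.31% of all genes, and 2.79% in the lower direction), and 0 in round spermatids (all genes 0.0363%). The 7 were Rragc, Cdca8, Gnl2, Tmem35b, Rbbp4, Dcdc2b and Pef1. The mean sum of spermatocyte markers was also lower in heterozygous than in wild-type spermatocytes (680 against 1141 CPM). Its part in these calls was not tested. Without wild-type replicate 5 edgeR called 13 members in heterozygous spermatocytes, where 15.5% of all genes were called. Heterozygous libraries did not overlap with wild-type ones for 24 members in spermatocytes (23.3%, all genes 17.2%) and for 8 in round spermatids (7.77%, all genes 8.69%).

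In null against heterozygous libraries edgeR called 0 members in both fractions (0.00514% and 0.00518% of all genes), with 8 and 13 members at an unadjusted p under 0.05 (7.77% and 12.6%, all genes 3.74% and 7.67%). DESeq2 called 0 in spermatocytes (all genes 0.0206%) and 2 in round spermatids, Trim62 and Tmem39b (1.94%, all genes 0.104%). Null and heterozygous libraries did not overlap for 15 members in spermatocytes (14.6%, all genes 8.60%) and 7 in round spermatids (6.80%, all genes 4.01%). These comparisons share their heterozygous libraries with the ones before, so their counts are not separate evidence.

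A slope per deleted copy, called at an edgeR adjusted p under 0.05 alone, gave Tmem35b in spermatocytes (-0.98, SE 0.14, adjusted p = 0.0381; 0.0154% of all genes called) and 3 members in round spermatids (0.186% of all genes called): Trim62 (-0.83, SE 0.15, adjusted p = 0.0454), Tmem39b (-0.38, SE 0.06, adjusted p = 0.0454) and Zbtb8os (0.40). The call of Tmem35b held in 3 of 10 fits without 1 library, those of Trim62, Tmem39b and Zbtb8os in 3, 4 and 2 of 11. All 3 round spermatid slopes were also lost with library totals (adjusted p = 0.0850 to 0.110 by edgeR), the replicate block (0.0781 to 0.0789) and the library number term (0.0854 to 0.0893), and that of Tmem35b in spermatocytes with each of these and with the outliers (0.0521 to 0.0980). In round spermatids the slopes passed only in fits without a heterozygous library, and in 0 of the 7 fits without a wild-type or null library. In spermatocytes 24 members passed without heterozygous replicate 3 (22.5% of all genes), 18 without wild-type replicate 5 (17.7%) and 13 without null replicate 2 (8.97%). DESeq2 called 19 slopes in spermatocytes (18.4%, all genes 16.6%) and 12 in round spermatids (11.7%, all genes 6.37%). All 3 genotypes stood in order without overlap for 3 members in spermatocytes, Tmem35b and Rbbp4 downward and Kpna6 upward (2.91%, all genes 0.607%), and for 0 in round spermatids (all genes 0.228%). The wild-type outlier library of the spermatocytes, left out here, stood at 4.81 CPM for Tmem35b, below the highest heterozygous library (5.15 CPM), and at 146.2 CPM for Rbbp4, below all 3 kept heterozygous libraries (154 to 172 CPM), so this order does not hold for either with that library included. The heterozygous outlier library breaks it too, at 2.48 CPM for Tmem35b (null 2.15 to 2.62 CPM) and 105.7 CPM for Rbbp4 (null 129 to 145 CPM). Group means followed the number of deleted copies for 49 members in spermatocytes (47.6%, all genes 47.0%) and 54 in round spermatids (52.4%, all genes 48.0%). Many members thus had intermediate heterozygous means, at about the rate of all genes.

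The third question was whether the 2 fractions differ. No member of 104 passed the test of the difference between the null effects (edgeR and DESeq2, 0.0% of all 20404 genes called by either), with 7 at an unadjusted p under 0.05 (6.73%, all genes 5.95%). The smallest p belonged to Rbbp4, whose null effect was 0.65 less negative in round spermatids (SE 0.24, adjusted p = 0.807 by edgeR). Of 102 members tested in both fractions 77 had log2 fold changes of the same sign (75.5%), against 76.0% of all genes. Non-overlapping groups in both fractions were found for 18 members (17.6%) and for 10.4% of all genes, and all 18 members lay on the same side of wild-type in both fractions, which also held for 1931 of the 1948 genes of that kind. The 18 comprise 14 lower ones and 4 higher ones (Sh3d21, Zfp362, Zbtb8os and Bsdc1), and 12 of them lie 2 Mb or more telomeric of the span. Across members the 2 log2 fold changes had Pearson's r = 0.61 (n = 102), close to 0.593 over all genes. These points share libraries and are not independent, so no p is given. Libraries with consecutive numbers in the 2 fractions also deviated together (correlation above 0.1 in 8 of 9 pairs). Agreement between the fractions is therefore not separate evidence.

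**Figure D3:**
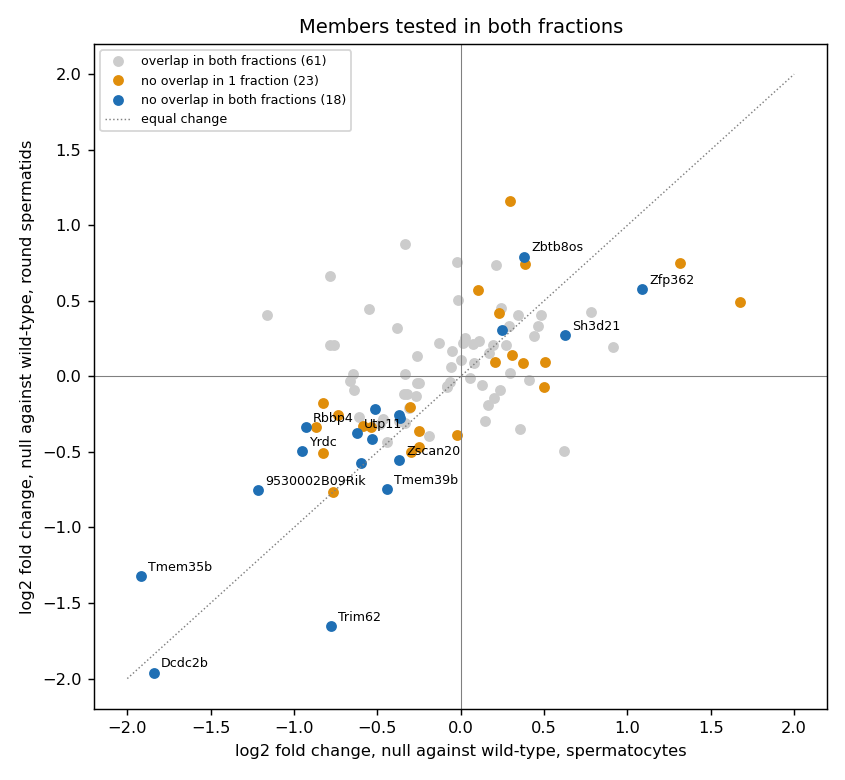
The log2 fold change of null against wild-type libraries in spermatocytes (x axis) and round spermatids (y axis) for the 102 members tested in both. The 18 members without overlap in both fractions (blue) all lie in the lower left or upper right quadrant, with Tmem35b, Dcdc2b and Trim62 farthest out.

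DESeq2 with the same thresholds called more genes of all kinds. It called 18 members in null spermatocytes (17.5%, all genes 15.6%), 5 higher (4.85%, all genes 9.08%) and 13 lower (12.6%, all genes 6.48%). The 5 higher ones were Hpcal4, Fhl3, Mtf1, Sh3d21 and Zfp362. Among the 13 lower ones were 9530002B09Rik, Rragc, Utp11, 1110065P20Rik, Yrdc, Cdca8, Gnl2, Trappc3, Tmem35b, Rbbp4, Dcdc2b and Pef1. In null round spermatids it called 10 members (9.71%, all genes 3.64%), 4 higher and 6 lower (3.88% and 5.83%, all genes 1.64% and 2.00%). Among the 10 were Epha10, Tmem35b, Zscan20, Zfp362, Trim62, Yars, Zbtb8os, Lck and Tmem39b. Of the 10, Epha10 alone lies on the centromeric side and 6 lie between 2 and 3 Mb on the telomeric side. In spermatocytes the telomeric members from 2 to 3 Mb had 3 of 17 DESeq2 calls (17.6%) and the centromeric ones from 1 to 2 Mb had 7 of 17 (41.2%). At an unadjusted p under 0.05 edgeR gave 29 members in spermatocytes (28.2%, all genes 30.4%) and 28 in round spermatids (27.2%, all genes 19.3%).

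By function the members without overlap were spread over most groups. Of 104 members 87 belong to 1 of 10 lists by role. The shares of all genes without overlap, against which each list is set, were 27.8% in spermatocytes (13% higher, 14.8% lower) and 20.8% in round spermatids (8.43% higher, 12.3% lower), and most lists hold too few members for their shares to be read as more than counts. Of the 15 RNA processing members 1 was higher and 2 were lower without overlap in spermatocytes (20% together, all genes 27.8%), and 1 and 4 in round spermatids (33.3%, all genes 20.8%). Examples are Zbtb8os and Yrdc above, and Khdrbs1 at -0.66 (SE 0.23) in spermatocytes, where its groups overlapped. Of the 5 translation members (Eif3i, Yars, Mrps15, Utp11, Gnl2), 3 were lower and 0 higher without overlap in spermatocytes (60%, all genes 27.8%), with Gnl2, a GTPase of ribosome assembly, at -0.83 (SE 0.23, adjusted p = 0.0631 by edgeR) and Utp11 at -0.62 (SE 0.21). In round spermatids 2 lay lower and Yars lay higher (60%, all genes 20.8%). Of the 11 chromatin and zinc finger members 2 were higher and 3 lower in spermatocytes (45.5%, all genes 27.8%) and 1 and 2 in round spermatids (27.3%, all genes 20.8%), among them Zscan20 at -0.37 and -0.55.

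Of the 13 members known from testis or cilium, Dcdc2b alone was without overlap in spermatocytes (7.69%, all genes 27.8%), and Dcdc2b and Spocd1 (-0.39, SE 0.16) were in round spermatids (15.4%, all genes 20.8%). The most highly expressed of this list per kb, Hmgb4, had log2 fold changes of 0.46 (SE 0.27) and 0.33 (SE 0.21), both with overlap. Oxct2a and Oxct2b are near-identical copies whose reads cannot be assigned securely. Their log2 fold changes were 0.11 and -0.05 in spermatocytes and 0.24 and 0.17 in round spermatids. Of the 17 membrane and trafficking members 2 were higher and 4 lower without overlap in each fraction (35.3%, against 27.8% of all genes in spermatocytes and 20.8% in round spermatids), Tmem35b, Tmem39b and Rragc among those in spermatocytes. Of the 7 signalling members 1 was higher (Fhl3) and 2 lower in spermatocytes and 0 and 3 in round spermatids (42.9% in each fraction, all genes 27.8% and 20.8%). The 5 metabolic members had median log2 fold changes of -0.06 in spermatocytes and 0.06 in round spermatids, and of 3 members of replication and division Cdca8 (borealin) lay lower in spermatocytes, at -0.82 (SE 0.23, adjusted p = 0.0620 by edgeR). The edgeR test passed for Tmem35b and Tmem39b in the membrane list and for Trim62 in the signalling list, and for 0 members of the other 8 lists in null against wild-type libraries.

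Of the 9 matrix and cell surface members 2 (Col8a2 and Grik3) were higher without overlap in spermatocytes (22.2%, all genes 27.8%) and 0 in round spermatids (all genes 20.8%). The 2 immune members, Lck (a T cell kinase) and Laptm5 (a lysosomal protein of blood cells), both lay higher without overlap in null round spermatids, where 8.43% of all genes did. Lck measured 1.503, 1.23 and 0.8955 CPM in wild-type, 1.45, 2.29, 2.22 and 1.33 CPM in heterozygous and 3.49, 2.39, 2.76 and 2.37 CPM in null round spermatids, a log2 fold change of 1.16 (SE 0.28, adjusted p = 0.0803 by edgeR). Laptm5 stood at 0.16, 0.70 and 0.26 CPM in wild-type and 0.76, 1.55, 1.08 and 1.26 CPM in null ones, a log2 fold change of 1.55 (SE 0.52, adjusted p = 0.135 by edgeR). Beside these, the macrophage sum was higher in null round spermatids as given above, while 6 T cell markers, chosen after the values were seen, summed to 6.03 CPM in wild-type (4.86 to 7.19) and 6.86 CPM in null libraries (5.85 to 7.69). Cd3d alone of the 6 had enough counts to be tested, and it made up most of that sum, at 5.48 CPM in wild-type and 6.19 CPM in null libraries (log2 fold change 0.17, adjusted p = 0.735 by edgeR). Their part in the levels of Laptm5 and Lck was not tested.

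Along the rest of chromosome 4 the shares were close to those of autosomal genes, of which 27.7% did not overlap in spermatocytes and 20.9% in round spermatids. Outside the window 26.9% of 1016 genes did not overlap in spermatocytes and 20.6% of 1008 in round spermatids, and DESeq2 called 15.0% and 3.77%. In bins of 2 Mb with at least 20 genes (22 bins a fraction, with all genes tested apart from the 9 left out by name), the bin centred 2 Mb telomeric of the span had the highest share of DESeq2 calls in round spermatids, 34.8% of 23 genes, and the next was 11.1% of 36 genes in the bin at -84 Mb. The same bin had 39.1% of genes without overlap in round spermatids, again the highest, followed by 38.7% of 31 genes in the bin at 4 Mb. In spermatocytes the highest share without overlap, 56.2% of 32 genes, was in the bin at -18 Mb, far outside the window, and the bin at 2 Mb ranked 3 of 22 with 43.5%. For DESeq2 calls in spermatocytes the bin centred 2 Mb centromeric of the span ranked first, with 28.6% of 35 genes, followed by 23.8% of 21 genes in the bin at 26 Mb.

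**Figure D4:**
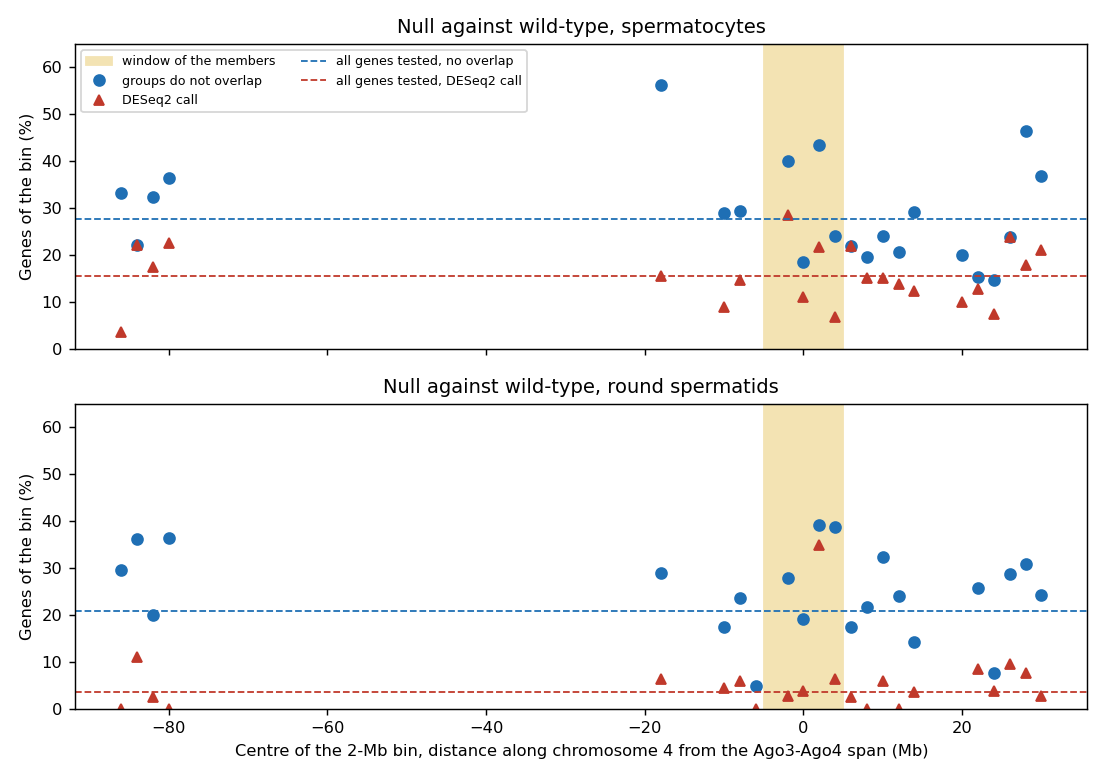
The percentage of genes whose null and wild-type libraries do not overlap (blue circles) and that DESeq2 called (red triangles) in 2-Mb bins of chromosome 4 with at least 20 genes, against distance from the Ago3-Ago4 span in Mb, with dashed lines for all genes tested and the members' window shaded. In round spermatids (bottom) the bin at 2 Mb stands apart for DESeq2 calls at 34.8%, whereas in spermatocytes (top) bins outside the window reach a higher share without overlap (56.2% at -18 Mb) and up to 23.8% of DESeq2 calls, against 28.6% in the bin at -2 Mb.

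**Figure D5:**
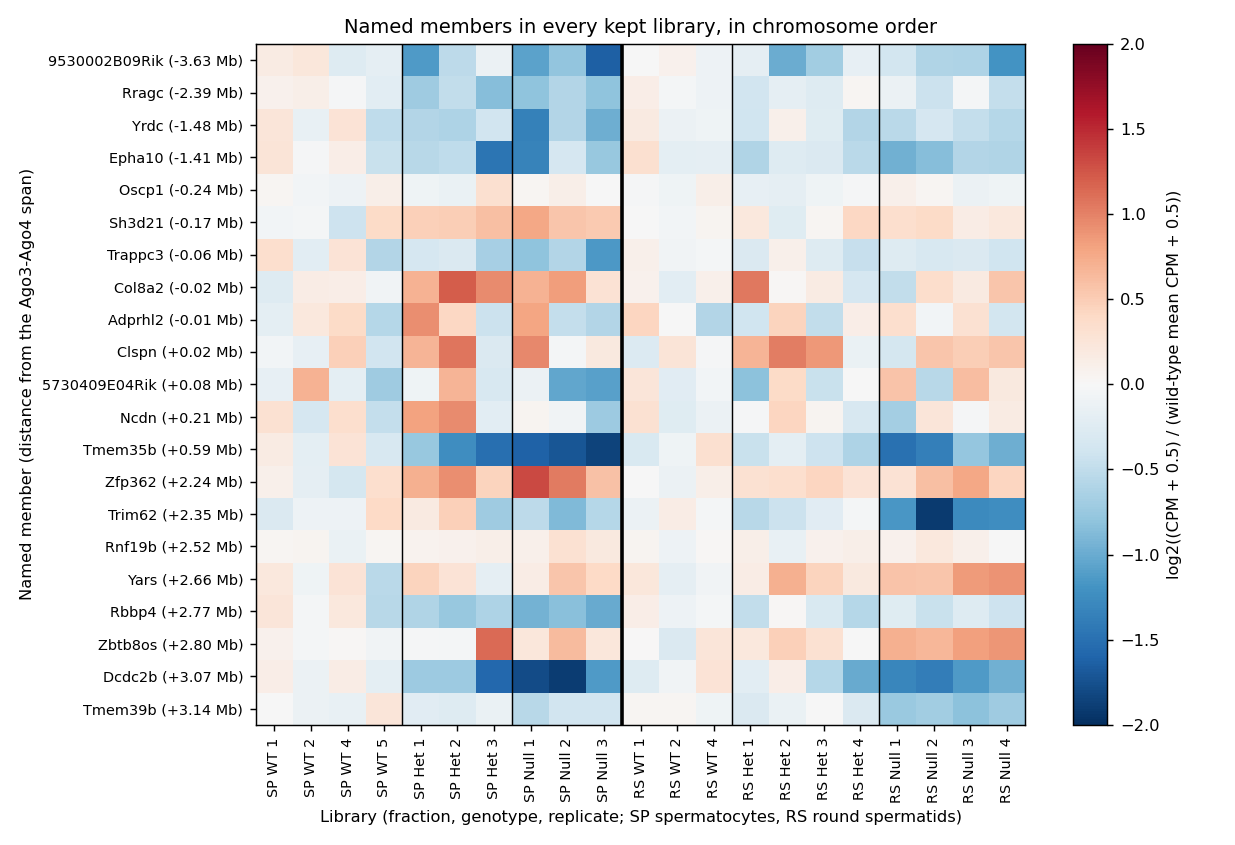
Each of 21 named members (rows, in chromosome order with distance in Mb) in each kept library (columns), as the log2 ratio of CPM + 0.5 to the wild-type mean of the same fraction + 0.5. The rows of Tmem35b, Rbbp4, Dcdc2b and Tmem39b are blue in null libraries of both fractions, and Zfp362 and Zbtb8os are red. Of the 3 rows nearest the span on each side, Adprhl2, Clspn and Ncdn show both colours within 1 genotype. Trappc3 is blue in null libraries of both fractions, and Col8a2 is red in null spermatocytes at levels set by a few reads.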

How the data were processed

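Germ cell fractions were sequenced as polyA-selected directional libraries. Per the labels and the study's methods, the authors trimmed reads with Trim Galore, aligned them to mm10 with STAR and deposited raw read counts per gene; the annotation release and the strand column counted are not given in the sources used here. The 55536 gene IDs were all found in GENCODE M21, which gave positions. Counts were tested with edgeR 4.0.16 in R 4.3.3 (TMM scaling, quasi-likelihood F test, all genotypes of a fraction in 1 fit, genes that reached 10 counts in 3 or more libraries, Benjamini-Hochberg adjustment over all genes tested). A call needed an adjusted p under 0.05 and a log2 fold change beyond 0.5, or the adjusted p alone for the slope per deleted copy and the difference between fractions. DESeq2 1.42.0 was the other tool. CPM are counts scaled to the TMM-corrected library size. The p-values measure the spread between pools of mice. Intervals and limits of detection cover counting error only. Scripts were tested on simulated data. The members and the lists were chosen with earlier results of these data known. Members were named with values if edgeR called them in any comparison, if they had the 8 smallest p in a fraction or the 8 largest smaller changes over both fractions among members without overlap, if they were the 3 nearest on a side, or the 3 most abundant; 22 members met these criteria, of which 1 is not reported here, and others named as list examples or for a count were chosen after their values were seen. Same replicate numbers within a fraction did not mark pairs, since only 5 of 17 correlations of deviations were above 0.1 (-0.268 to 0.184).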

Additional observations from a re-analysis of the deposited data

Results flagged for a closer look

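Of 66 groups of 4 libraries looked at for the named members, 3 held a library far from the other libraries of its group, measured as its gap to the nearest of them over the whole range. Chance gives such a library in about 1 in 20 groups. Clspn stood at 2.41 CPM in null round spermatid replicate 1 and at 4.74 to 4.96 CPM in the other null libraries, a gap of 0.915 of the range. Rnf19b stood at 586.8 CPM in wild-type spermatocyte replicate 4, against 655.8 to 667.9 CPM in the others (0.851), and at 666.9 CPM in heterozygous round spermatid replicate 2, against 783.3 to 804.2 CPM (0.848).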

How the results depend on the processing

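Counts of members called depended on the tool and the libraries, and the percentage after a count is the share of all genes called in that setting. For null against wild-type spermatocytes (1 member) the count was 18 with DESeq2 (15.6%), 12 with no filter on low counts (7.61%), 10 with only the compared groups (6.93%), 2 with the replicate block (Tmem35b and Rbbp4, 3.53%), and 0 with the outliers added back (0.0305%), with a term for library numbers above 60 (0.0206%) or with library totals (0.036%). For null against wild-type round spermatids (2) it was 10 with DESeq2 (3.64%), 9 with no filter (0.70%), 3 with the outliers added back (Zbtb8os passing as well, adjusted p = 0.0441 by edgeR, 0.134%), 1 with library totals (0.0414%) or only the compared groups (0.0531%), and 0 with the replicate block (0.0414%). For the slope in spermatocytes (1) it was 19 with DESeq2 (16.6%), 10 with no filter (4.24%) or only wild-type and null libraries (6.94%), and 0 with outliers, number term, library totals or replicate block (0.00514% to 0.0102%). For the slope in round spermatids (3) it was 12 with DESeq2 (6.37%), 7 with RLE size factors (0.394%), 8 with outliers (0.463%), 5 with no filter (0.191%), 1 with only wild-type and null libraries (0.0531%), and 0 with the number term, library totals or replicate block (0.0104% to 0.0155%). For heterozygous against wild-type spermatocytes (0) it was 7 with DESeq2 (6.31%) and 11 with no filter (4.30%), and for null against heterozygous round spermatids (0) it was 2 with DESeq2 (0.104%) and 1 with no filter (0.0323%). Leaving out 1 library gave 0 to 20 and 0 to 2 members (null against wild-type, spermatocytes and round spermatids), 0 to 24 and 0 to 5 (slopes) and 0 to 13 (heterozygous spermatocytes). The counts of 20 (23.6%) and 13 (15.5%) came without wild-type spermatocyte replicate 5, and that of 24 (22.5%) without heterozygous spermatocyte replicate 3. The difference between fractions gave 0 in every setting run. The cause of these shifts was not tested.

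With the outliers added back, an alternative chosen after seeing the data for the counts without overlap, these were 14 in spermatocytes (13.6%, all genes 11.5%) and 24 in round spermatids (23.1%, all genes 13.9%), and without wild-type replicate 5 the spermatocyte count was 48 (46.6%, all genes 52.3%). With the outliers the shares within and beyond 2 Mb moved to 9.09% and 16.9% in spermatocytes.

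For the named members 696 values kept their direction and side of the threshold, 57 newly passed, 70 no longer passed and 20 changed sign, all of them log2 fold changes of Oscp1, Adprhl2 and Ncdn. The farthest from 0 was that of Adprhl2 in spermatocytes without null replicate 1 (-0.7435). Oscp1 in round spermatids became 0.0004398 (DESeq2), 0.0002792 (RLE), 0.001086 (TMM without X, Y and window genes), 0.02596 (no filter), 0.06431 (outliers), 0.0007412 (replicate block), and -0.06344 to 0.04519 with a library left out (0.01951 and 0.0113 among them). Adprhl2 became -0.0217 (outliers), -0.13 and -0.7435 in spermatocytes and -0.1589, -0.032 and -0.01851 in round spermatids (a library left out), in ranges of -0.7435 to 0.382 and -0.1589 to 0.4351. Ncdn became 0.03055 (replicate block) and 0.009531 (number term) in spermatocytes, and 0.03948 (outliers), 0.1753 and 0.1383 in round spermatids, where leaving out a library gave -0.1719 to 0.1753.

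Consecutive library numbers across fractions correlated above 0.1 in 8 of 9 pairs (-0.168 to 0.36), and with them as the block the difference between fractions again gave 0 members. Reads from 20 members that overlap a gene on the same strand cannot be assigned to 1 gene with certainty. At 3 counts the limit of detection was 0.102 to 0.240 CPM, so levels such as those of Col8a2 are set by a few reads.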

Other observations

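The 3 libraries called outliers in the labels entered only the alternatives named as such, and their levels of the members that passed a test are given here as values. Tmem35b stood at 4.81 CPM in wild-type spermatocyte replicate 3, at 2.48 CPM in heterozygous spermatocyte replicate 4 and at 3.95 CPM in wild-type round spermatid replicate 3. In the same order Trim62 stood at 6.06, 4.20 and 5.79 CPM, Tmem39b at 125.6, 113.6 and 110.3 CPM, and Zbtb8os at 20.01, 26.0 and 19.9 CPM. Rbbp4, its divergent neighbour, stood at 146.2, 105.7 and 115.4 CPM. Both wild-type outliers thus lay above all null libraries of their fraction for Tmem35b, Trim62 and Tmem39b, and below them for Zbtb8os. For Rbbp4 the spermatocyte outlier lay just above the highest null library (145.1 CPM), and the round spermatid outlier lay within the null range of 105.0 to 120.1 CPM. Of the 11 named members looked at that had no overlap in spermatocytes, 3 had the wild-type outlier within the null range. These were Dcdc2b at 1.57 CPM (null 1.11 to 2.24), Yrdc at 17.8 CPM (null 13.1 to 22.8) and Zfp362 at 7.52 CPM (null 6.53 to 11.2). Of 12 such members in round spermatids, Rbbp4 had it within the null range and Yrdc, at 10.3 CPM, below the lowest null library (10.96 CPM).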
